A study of Homo sapiens with 12 samples.

Results

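The replication-dependent histone gene clusters were taken as the GENCODE protein-coding histone genes in 3 windows of the human genome build hg19, 2 on chromosome 6 and 1 on chromosome 1. The members span chr6:26017260-26285866, chr6:27093676-27861669 and chr1:149754245-149859515. The windows held 61 such genes of 20163 protein-coding genes in all, with 29 in the first window, 21 in the second and 11 in the third. By family, 6 encode H1 linker histones, 15 H2A, 14 H2B, 13 H3 and 13 H4. Of 265912 SMC1 and CTCF peaks in the series, 212 had their summit in the windows, and 50 of these lay within 1 kb of the start of a histone gene. A peak was assigned to each gene that had a transcript start within that distance of its summit, so that a peak between closely spaced genes was counted for each of them.

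The libraries were chromatin immunoprecipitation sequencing (ChIP-seq) libraries of HAP1 cells, a human line of chronic myeloid leukaemia origin with a nearly haploid genome, made with an antibody against the cohesin subunit SMC1, against CTCF, or with IgG as a control. Cohesin is a ring-shaped complex that holds DNA and forms chromatin loops, and CTCF is a zinc-finger protein at which such loops commonly end. The 4 genotypes were wild-type, ΔWAPL, ΔSCC4 and ΔWAPL/ΔSCC4. WAPL releases cohesin from DNA, and SCC4, the product of MAU2, is part of the SCC2/SCC4 complex that loads it. ΔWAPL and ΔSCC4 cells were CRISPR clones in which a Blasticidin or a Puromycin resistance cassette, respectively, had been inserted in the targeted gene. The double knockout ΔWAPL/ΔSCC4 was made from the ΔWAPL line, which the labels name WaplKO_3.3, by also removing SCC4, so that both lines without WAPL share that clone. All genotypes were otherwise the same parental line, the labels give no further treatment, and peak lists do not show whether WAPL or MAU2 was lost. Each antibody and genotype had 1 library, so that nothing was tested between genotypes, and intervals below cover counting error only.

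Histone genes of these clusters are short, mostly without introns, and are transcribed in S phase, when new DNA is packaged. Their mRNAs end in a stem-loop in place of a poly(A) tail, and their transcription and 3′ processing are gathered in a nuclear body around NPAT. H2A and H2B genes often lie head to head and share the promoter between them. Near-identical copies are frequent, which limits where short reads can be placed.

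To show the DNA that the SMC1 and CTCF signals lay on, sequences of both kinds of site were read from hg19. The first set is the sequence from 75 bases before to 75 bases after the SMC1 summit, 5′ to 3′ on the strand of the gene, with the summit base in capitals. H2AC8 (chr6:26217355-26217505, plus strand) and H4C3 (chr6:26104179-26104329, plus strand) had SMC1 and CTCF together in ΔWAPL cells, while H2AC11 (chr6:27100893-27101043, plus strand, ΔWAPL) and H2AC21 (chr1:149859117-149859267, minus strand, ΔSCC4) had SMC1 alone. Each window lay inside the histone gene, not in its promoter.
H2AC8: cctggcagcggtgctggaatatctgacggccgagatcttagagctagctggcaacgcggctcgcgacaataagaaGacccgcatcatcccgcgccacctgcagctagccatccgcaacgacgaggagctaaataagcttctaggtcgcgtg
H4C3: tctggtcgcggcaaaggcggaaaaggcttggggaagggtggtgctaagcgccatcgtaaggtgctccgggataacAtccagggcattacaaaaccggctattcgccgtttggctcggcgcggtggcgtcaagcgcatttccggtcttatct
H2AC11: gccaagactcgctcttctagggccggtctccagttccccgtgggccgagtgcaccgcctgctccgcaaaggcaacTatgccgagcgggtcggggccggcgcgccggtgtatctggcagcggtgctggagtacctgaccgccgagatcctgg
H2AC21: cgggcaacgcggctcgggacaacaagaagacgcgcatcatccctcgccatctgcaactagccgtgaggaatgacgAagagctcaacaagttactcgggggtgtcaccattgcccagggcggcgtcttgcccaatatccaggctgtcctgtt

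The second set gives the 19-base CTCF motif at the regions near histone starts that had a CTCF peak in all 4 genotypes and a motif match, shown against the consensus learned from wild-type CTCF peaks elsewhere in the genome. All letters are capitals because the whole run is the motif. The HIST1H4B match lay at chr6:26026670-26026688 on the plus strand, that of H2AC8 at chr6:26217443-26217461 on the minus strand, that of H2AC21 at chr1:149860138-149860156 on the plus strand, and that of the cluster site with the highest SMC1 fold enrichment at chr6:27740395-27740413 on the plus strand.
Consensus: TGGCCACCAGGGGGCGCTG
HIST1H4B: CTACCGGCAGGGGGCGGTT
H2AC8: CTAGCTGCAGGTGGCGCGG
H2AC21: TGACCTCCAGGAGGCGGCC
Highest SMC1 site: TCTCCACCAGGCGGCGCGC

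The third set is the DNA between the starts of head-to-head H2B and H2A genes, plus strand, with the TATA word TATAAA, the word CCAAT and the octamer ATTTGCAT in capitals on either strand. H2BC11 and H2AC11 (chr6:27100575-27100821) and H2BC12 and H2AC12 (chr6:27114635-27114884) are shown because both pairs had an SMC1 peak in ΔWAPL cells, and H2BC13 and H2AC13 (chr6:27775708-27775950) because that pair had none in any genotype, although 43.2% of the read-length words around the H2AC13 start recur in hg19, which limits read placement there.
H2BC11 to H2AC11: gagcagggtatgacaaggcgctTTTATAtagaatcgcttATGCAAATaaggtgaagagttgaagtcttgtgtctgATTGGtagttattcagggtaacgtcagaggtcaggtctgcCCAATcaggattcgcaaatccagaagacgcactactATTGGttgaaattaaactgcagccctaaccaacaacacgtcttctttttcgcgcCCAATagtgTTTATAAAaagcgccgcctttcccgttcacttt
H2BC12 to H2AC12: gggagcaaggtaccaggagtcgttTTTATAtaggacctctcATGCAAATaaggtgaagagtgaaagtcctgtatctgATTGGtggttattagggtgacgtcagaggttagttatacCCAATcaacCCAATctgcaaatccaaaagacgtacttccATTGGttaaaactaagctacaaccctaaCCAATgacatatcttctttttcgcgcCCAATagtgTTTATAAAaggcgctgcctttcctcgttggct
H2BC13 to H2AC13: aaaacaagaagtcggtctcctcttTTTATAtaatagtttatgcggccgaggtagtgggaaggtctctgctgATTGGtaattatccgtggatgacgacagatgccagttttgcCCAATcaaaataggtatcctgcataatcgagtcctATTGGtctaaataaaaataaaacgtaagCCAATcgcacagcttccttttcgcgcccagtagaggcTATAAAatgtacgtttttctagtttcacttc

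The deposited fold enrichment is the read pileup at a peak's summit over its local background, with 1 read added to each. The study's methods name IgG as the control in peak calling. The backgrounds recovered from the lists look like unscaled read counts of the ChIP library itself, with no scaling to an IgG library seen. Whether IgG entered the calling was not tested. Reads recovered from the fold enrichment gave genome-wide averages of 6.79 to 8.41 reads per kb for the 4 SMC1 libraries. For the 4 CTCF libraries they were 6.53 to 8.41. None of the 570, 562, 390 and 487 IgG peaks of wild-type, ΔWAPL, ΔSCC4 and double-knockout cells fell in the clusters. At this depth an SMC1 peak near a histone start rested on 10 to 30 reads at its summit, and a gene without a listed peak may still have had signal under the authors' calling threshold, which is not stated in the sources used here.

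SMC1 peaks lay near the start of 8 of the 61 histone genes in wild-type cells, 17 in ΔWAPL, 6 in ΔSCC4 cells and 2 in the double knockout. Among all protein-coding genes, 17.3% had such a peak in the wild type, 43.7% in ΔWAPL, 11.8% in ΔSCC4 cells and 24.3% in the double knockout. As shares of the histone genes, the counts were 13.1% (95% Wilson interval 6.80 to 23.8), 27.9% (18.2 to 40.2), 9.84% (4.59 to 19.8) and 3.28% (0.904 to 11.2). These shares count every transcript start, and 12 of the 61 histone genes have several. With 1 start per gene the histone counts stayed the same, while the shares of all genes were 11.4%, 35.1%, 7.84% and 17.4%. The intervals of the wild-type and ΔSCC4 histone shares held the share of all genes on either count of starts. The ΔWAPL histone share was below that of all genes over every start, but its interval held the share with 1 start per gene, whereas the ΔWAPL/ΔSCC4 share was below on either count. The 61 genes include 6 of chromosome 1 in which 100% of the read-length words around the start recur. Here and in every SMC1 or CTCF share below, these 6 count as genes without a peak, which lowers the histone shares. Shares without them were not counted, and such genes were not sought among all protein-coding genes. With only peaks of −log10 q of at least 10 kept, the histone genes called were 0, 2, 0 and 0, and with a fold enrichment of at least 5 they were 2, 3, 3 and 1. In double-knockout cells the histone share was also below that in wild-type and ΔSCC4 cells, while the share of all genes was above both. Thinned to equal depth with −log10 p of at least 8, the histone genes called were 1, 5, 3 and 2 in wild-type, ΔWAPL, ΔSCC4 and double-knockout cells, so that the double knockout was no longer below the wild type. Shares of all protein-coding genes were not counted under these stricter settings. Whether histone genes fell more than other genes under them is thus not known. The Wilson intervals treat genes as independent, but 17 genes in ΔWAPL cells rested on 16 peaks, 8 genes in wild-type cells on 6 peaks and 6 genes in ΔSCC4 cells on 4 peaks.

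Over the 4 genotypes, 20 histone genes had an SMC1 peak near a start in at least 1 list and 41 had none. This is 32.8% of the histone genes, beside 45.9% of all protein-coding genes, or 7460 of those 20163 genes with 1 start per gene. Only H2AC21, an H2A gene of the chromosome 1 cluster, was called in all 4 genotypes, though not at a single site. This is 1.64% of the histone genes, beside 9.48% of all protein-coding genes over every start. For 10 genes the peak was listed in ΔWAPL cells only, and 9 of these 10 had no CTCF peak near a start in any genotype. The share of all genes with SMC1 in ΔWAPL cells only was not counted. The 7 genes called in the second window, the distal cluster on chromosome 6, all belonged to those 10.

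**Figure D1:**
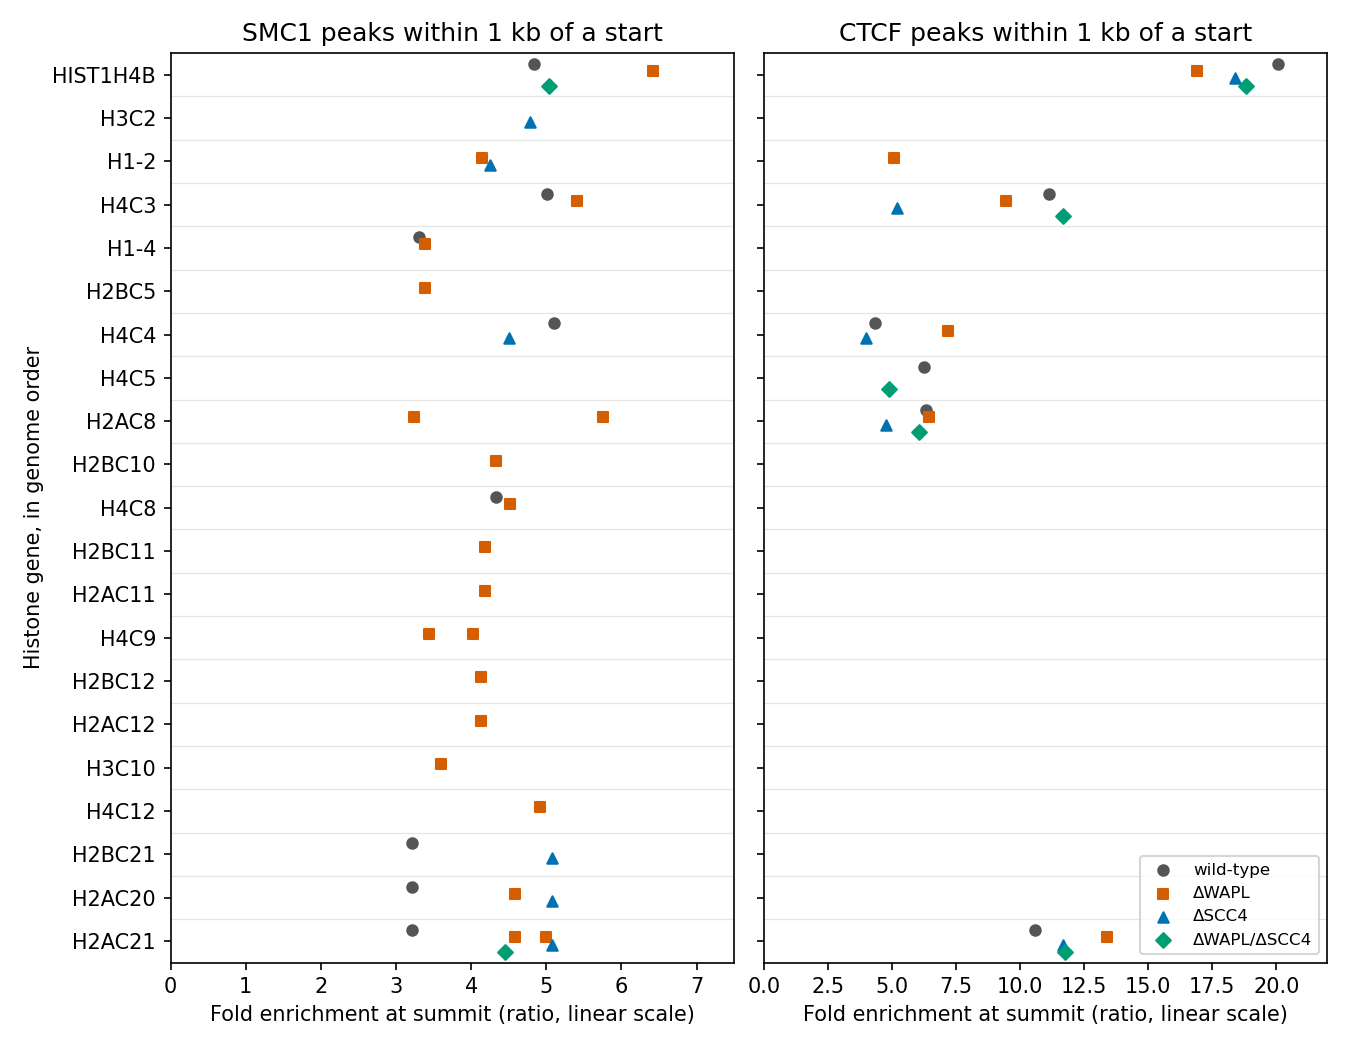
Fold enrichment (x axis, linear) of each SMC1 (left) and CTCF (right) peak within 1 kb of a start, for the 21 histone genes with such a peak in any genotype (y axis, in genome order). Symbols stand for genotypes, with 1 library each and no error bar. SMC1 values lie between 3.21 and 6.42, while CTCF reaches 20.1 at HIST1H4B, and from H2BC10 to H4C12 there are SMC1 symbols but no CTCF symbols.

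Of the 7 histone genes with a CTCF peak near a start in any genotype, 4 were H4 genes. H4 is the core histone that pairs with H3 in the nucleosome. HIST1H4B, the annotation's name for H4C2 (chr6:26027124-26027480, minus strand), had the strongest CTCF peak of all histone genes, with a fold enrichment of 20.1 in the wild type, 16.9 in ΔWAPL, 18.4 in ΔSCC4 cells and 18.8 in the double knockout. SMC1 at the same site had a fold enrichment of 4.84 in the wild type, 6.42 in ΔWAPL and 5.04 in double-knockout cells, and no SMC1 peak was listed in ΔSCC4 cells. The SMC1 summits rested on 18, 30 and 18 reads (95% Poisson intervals 10.7 to 28.4, 20.2 to 42.8 and 10.7 to 28.4), which overlap. The site lay 802 to 860 bp downstream of the start, beyond the 3′ end of the gene, so it is near the promoter by the 1 kb limit but not at it.

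H4C3 (chr6:26104161-26104565) carried both proteins inside the gene. Its CTCF fold enrichment was 11.1 in the wild type, 9.45 in ΔWAPL, 5.20 in ΔSCC4 cells and 11.7 in the double knockout, lowest in ΔSCC4. Relative to wild-type, its normalised CTCF pileup, that is the summit reads over the library's average, was 0.409 in ΔSCC4 (95% interval 0.188 to 0.839), on 12 against 26 reads. From ΔSCC4 to ΔWAPL/ΔSCC4 it was 2.51-fold (1.25 to 5.38). These were the lowest and the highest such CTCF ratios in the clusters. The medians were 0.823 at 5 regions near histone starts and 0.863 at 23 elsewhere for the first ratio. For the second they were 1.16 at 4 and 1.16 at 23. The SMC1 peak of H4C3 was listed only in wild-type (fold enrichment 5.00) and ΔWAPL cells (5.41).

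The other H4 genes had weaker sites. At H4C4 (chr6:26188938-26189340), SMC1 was listed in wild-type (fold enrichment 5.11) and ΔSCC4 cells (4.50), and CTCF in wild-type (4.32), ΔWAPL (7.17) and ΔSCC4 cells (3.97). H4C4 and H2BC21 were the histone genes with SMC1 in wild-type but not in ΔWAPL cells. For H2BC21 this came from the 1 kb limit. The overlapping ΔWAPL peak was listed (fold enrichment 4.58 on 23 reads, beside 3.21 on 15 in the wild type), but its summit lay just over 1 kb from the H2BC21 start. H4C5 had CTCF without SMC1, at 6.24 in the wild type and 4.87 in double-knockout cells. H4C8 had SMC1 without CTCF at 4.33 in the wild type and 4.52 in ΔWAPL cells. H4C12 had SMC1 in ΔWAPL cells only, at 4.91 on 13 reads (95% Poisson interval 6.92 to 22.2).

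H2A and H2B form the dimers that flank the H3 and H4 core. Of the 15 H2A genes, 2 had SMC1 near a start in the wild type, 5 in ΔWAPL, 2 in ΔSCC4 cells and 1 in the double knockout. Of the 14 H2B genes the counts were 1, 4, 1 and 0 in the same order, and none had a CTCF peak near a start in any genotype. All protein-coding genes had SMC1 near a start in 17.3%, 43.7%, 11.8% and 24.3% in that order, and in 35.1% in ΔWAPL cells with 1 start per gene. Families of this size, in which pairs share single peaks, are too small to be set apart from these shares. H2AC8 (chr6:26217149-26217665) had a CTCF peak inside the gene in all 4 genotypes, with fold enrichments of 6.33 in the wild type, 6.44 in ΔWAPL, 4.77 in ΔSCC4 cells and 6.05 in the double knockout. SMC1 was listed there in ΔWAPL cells only, at a fold enrichment of 5.75 on 27 reads (95% Poisson interval 17.8 to 39.3), with a further SMC1 peak without CTCF at 3.24 on 15 reads, 915 bp downstream of the start.

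H2AC21 (chr1:149859019-149859515, minus strand) had 2 neighbouring sites. Inside the gene lay an SMC1 peak without CTCF, with a fold enrichment of 3.21 in the wild type, 4.58 in ΔWAPL and 5.08 in ΔSCC4 cells, on 15, 23 and 26 reads. No peak was listed there in double-knockout cells. The other site, at 556 to 653 bp upstream of the start, had CTCF in all 4 genotypes with fold enrichments of 10.6, 13.4, 11.7 and 11.7 in wild-type, ΔWAPL, ΔSCC4 and double-knockout cells. SMC1 accompanied it in ΔWAPL (5.00) and ΔWAPL/ΔSCC4 cells (4.46) only. In the double mutant, SMC1 was therefore listed at the CTCF site and not at the site within the gene. The inner peak was also within 1 kb of H2AC20 and, in wild-type and ΔSCC4 cells, of H2BC21. BOLA1, which is no histone gene, has a start 75 bp from that of H2AC21, so the peak cannot be assigned to 1 of these genes.

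Among the head-to-head H2A and H2B pairs of the second window, only those of H2AC11 and H2AC12 each shared a single ΔWAPL peak. The pairs H2BC13 and H2AC13, H2AC14 and H2BC14, H2AC15 and H2BC15, and H2AC17 and H2BC17 had no SMC1 peak near a start in any genotype. H2AC11 and H2BC11 had a fold enrichment of 4.19 on 18 reads and H2AC12 and H2BC12 of 4.13 on 19 reads, without CTCF and in ΔWAPL cells only. The summits lay 146 bp and 117 bp downstream of the H2A starts, and 394 bp and 368 bp upstream of the H2B starts, so that both fell within the H2A gene. H2BC10 had a ΔWAPL peak of 4.33 on 17 reads, 118 bp downstream of its start. H2BC5 was within 1 kb of a ΔWAPL peak of 3.38 that also lay 996 bp downstream of H1-4.

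H1 and H3 genes had few peaks. H1 proteins bind the linker DNA between nucleosomes. H1-4 had SMC1 at 3.31 in the wild type and 3.38 in ΔWAPL cells, but the summits were 792 bp apart. H1-2 had SMC1 at 4.15 in ΔWAPL and 4.25 in ΔSCC4 cells, at summits 409 bp apart within the gene, and a CTCF peak of 5.06 in ΔWAPL cells beyond its 3′ end. Of the 13 H3 genes, H3C2 had SMC1 in ΔSCC4 cells only (4.78 on 19 reads). H3C10 had it in ΔWAPL cells only, at 3.60 on 10 reads, the lowest number of reads of these peaks, a tie with the more distant of the 2 ΔWAPL peaks of H4C9 (4.03 and 3.43). H2BC5, H4C5, H4C9 and H3C10 fall outside the rule for named genes and were named after their values were seen.

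The number of histone genes with CTCF near a start varied less between genotypes than that with SMC1. CTCF was listed at 6, 6, 5 and 5 histone genes in wild-type, ΔWAPL, ΔSCC4 and double-knockout cells, beside 29.2%, 29.5%, 26.0% and 31.0% of all protein-coding genes. As a share of the histone genes this was 9.84% (95% Wilson interval 4.59 to 19.8) in wild-type and ΔWAPL cells and 8.20% (3.55 to 17.8) in both others. Over all genotypes, 7 histone genes had CTCF in at least 1 list, which is 11.5% beside 34.7% of all protein-coding genes. With 1 start per gene the histone counts stayed the same and all genes were at 18.6%, 18.7%, 16.4% and 20.1% in the 4 genotypes and at 22.9% over all of them. The histone intervals then held the share of all genes in the first 3 genotypes and lay below it in double-knockout cells.

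SMC1 peaks that overlapped no CTCF peak of the same genotype lay near 5 histone genes in the wild type, 15 in ΔWAPL, 5 in ΔSCC4 cells and 0 in the double knockout. Among all protein-coding genes the shares were 3.53%, 25.3%, 2.04% and 7.02%. With 1 start per gene the histone counts stayed the same, and the shares of all genes were 2.78%, 21.3%, 1.64% and 5.79%. The histone shares were 8.20% (95% Wilson interval 3.55 to 17.8), 24.6% (15.5 to 36.7), 8.20% (3.55 to 17.8) and 0%, for which the interval reaches 5.92%. In double-knockout cells the histone interval held the share of all genes with 1 start per gene, but lay below that over every start. The ΔWAPL share was at the level of all genes, and in wild-type and ΔSCC4 cells the histone shares were higher. In those lists 3 of the 5 genes were H2BC21, H2AC20 and H2AC21, which shared 1 peak, so the 5 genes stood for 3 peaks. Counted as peaks, SMC1 near a histone start without CTCF numbered 3, 12, 3 and 0 in wild-type, ΔWAPL, ΔSCC4 and double-knockout cells, and with CTCF 3, 4, 1 and 2.

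**Figure D2:**
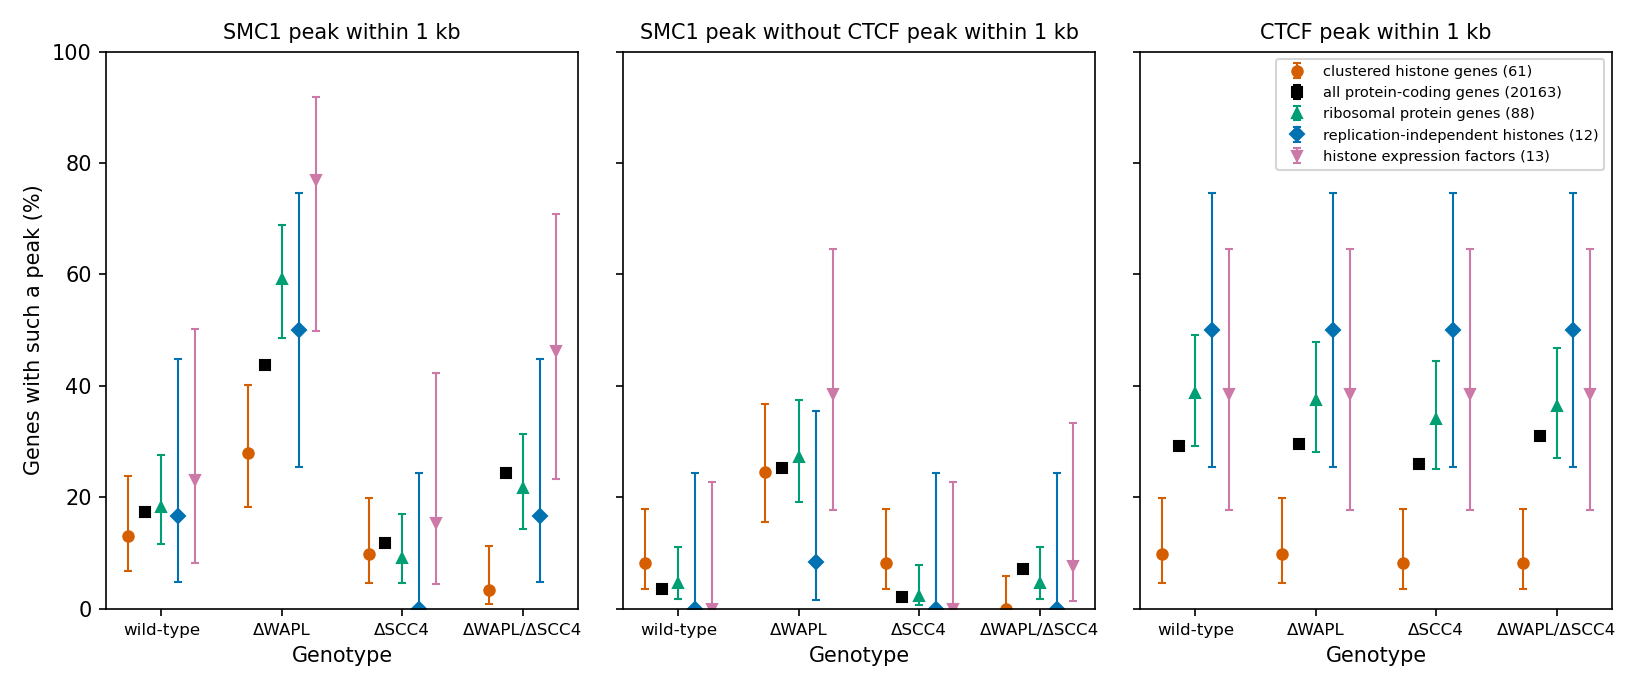
Share of genes (y axis, %) with an SMC1 peak (left), an SMC1 peak without CTCF (middle) or a CTCF peak (right) within 1 kb of a start, by genotype (x axis). Points are gene groups with their number of genes, and bars are 95% Wilson intervals, which cover counting error only. In ΔWAPL cells the clustered histone genes are at 27.9% for SMC1 and all protein-coding genes at 43.7% over every start, or 35.1% with 1 start per gene, which is not drawn, and for CTCF the histone genes are the lowest group in each genotype.

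The SMC1 summits without CTCF mostly lay downstream of the nearest histone start. This was so for 3 of 3 peaks in wild-type, 11 of 12 in ΔWAPL and 3 of 3 in ΔSCC4 cells, measured from the nearest start in the direction of transcription. The median offset was 204 bp in wild-type, 150.5 bp in ΔWAPL and 323 bp in ΔSCC4 cells. For all protein-coding genes, 44.7%, 57.3% and 43.3% of such peaks were downstream, with medians of -8, 17 and -8.5 bp. Those offsets run to the nearest of all transcript starts, while most histone genes have a single start, so the 2 are not fully alike. The chromosome 1 peak was nearer to a BOLA1 start (299, 146 and 248 bp in wild-type, ΔWAPL and ΔSCC4 cells) than to that of H2AC21 (374, 221 and 323 bp). Some sites, this one among them, recurred between genotypes and are not independent. Of the histone peaks without CTCF, 3 of 3 in wild-type, 8 of 12 in ΔWAPL and 3 of 3 in ΔSCC4 cells had their summit inside an annotated histone gene. The 2 SMC1 peaks of double-knockout cells were both at CTCF and both outside a histone gene.

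**Figure D3:**
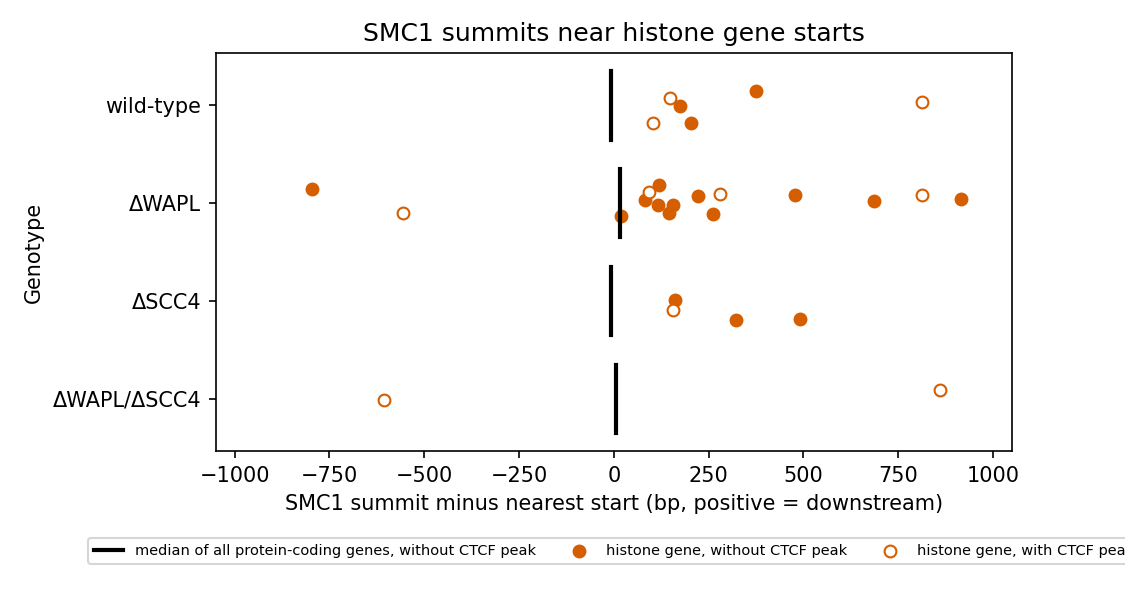
Distance in bp from the nearest histone gene start to the SMC1 summit (x axis, positive downstream) by genotype (y axis), 1 library each. Filled circles are peaks without and open circles peaks with a CTCF peak, jittered vertically, and the black bar is the median over all protein-coding genes for peaks without CTCF. The filled circles sit to the right of 0 except 1 in ΔWAPL cells at -797 bp, and double-knockout cells have none.

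SMC1 peaks without CTCF near histone starts were weak, as were those near the starts of all protein-coding genes. In ΔWAPL cells the histone peaks without CTCF had a median fold enrichment of 4.14 (range 3.24 to 4.91), beside a median of 4.43 for 4921 such peaks over all protein-coding genes. The median −log10 q was 5.01 for the 12 and 5.35 for the 4921. None of the 12 reached a −log10 q of 10, and 564 of the 4921 did, a share too small for none of 12 to stand apart. The local background at the 12 summits had a median of 1.96 times the library average, and 1.70 times over all genes. The part of this background in the number of histone peaks was not tested.

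Away from histone starts, the clusters held a more constant set of sites. Merging the 8 SMC1 and CTCF lists in the windows gave 56 regions, of which 22 were near a histone start, 3 near the start of another protein-coding gene and 31 near neither. CTCF was listed in all 4 genotypes at 4 of the 22, 2 of the 3 and 21 of the 31 regions. SMC1 was listed in all 4 genotypes at 0 of the 22, 2 of the 3 and 5 of the 31. Near histone starts, 14 of the 22 regions had SMC1 in a single genotype, 11 of them ΔWAPL, 2 ΔSCC4 and 1 wild-type. Among the 31 distal regions SMC1 was found in ΔWAPL alone at 6 and in ΔWAPL/ΔSCC4 alone at 2. Regions with SMC1 in a single genotype were not counted over the genome, so these numbers have no share beside them.

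The site with the highest SMC1 fold enrichment in the clusters over the 4 genotypes lay in the second window at chr6:27740167-27740632, 35.3 kb from the nearest histone start. Its SMC1 fold enrichment was 8.33 in the wild type, 15.8 in ΔWAPL, 10.6 in ΔSCC4 cells and 12.1 in the double knockout, and its CTCF fold enrichment was 20.2, 18.0, 19.5 and 20.9. The normalised SMC1 pileup was 2.05-fold in ΔWAPL relative to wild-type (95% interval 1.28 to 3.34). A site 5.3 kb from H2BC11 (chr6:27094749-27095297) had SMC1 fold enrichments of 6.85 in the wild type, 10.8 in ΔWAPL and 7.60 in double-knockout cells, and no SMC1 peak in ΔSCC4 cells, with CTCF at 17.8 to 19.1 in all 4. Its SMC1 ratio of ΔWAPL to wild-type was 2.76 (1.61 to 4.94), the largest in the clusters, and that of ΔWAPL/ΔSCC4 to ΔWAPL was 0.546 (0.332 to 0.879). One distal site (chr6:27486462-27487295) held the highest SMC1 value of the wild type and ran the other way, with SMC1 at 10.6 in the wild type, 7.63 in ΔWAPL, 6.92 in ΔSCC4 cells and 5.76 in the double knockout, though the interval of its ΔWAPL ratio (0.460 to 1.39) holds 1.

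Where SMC1 was listed in both wild-type and ΔWAPL cells, the pileup could be compared directly. At the 4 regions near histone starts the ratio of ΔWAPL to wild-type had a median of 1.36 (0.990 to 1.65), and no interval lay above 1. At 10 regions elsewhere in the clusters the median was 1.42 (0.804 to 2.76), with 3 intervals above 1. For CTCF the medians were 0.913 at 5 regions near histone starts and 0.791 at 24 elsewhere. At HIST1H4B the CTCF ratio was 0.580 (0.397 to 0.841), so that CTCF pileup was lower there in the ΔWAPL library while the SMC1 ratio was 1.65 (0.890 to 3.14). Regions listed in both genotypes had to pass the calling threshold in each, and the ratios leave out the ΔWAPL-only peaks.

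**Figure D4:**
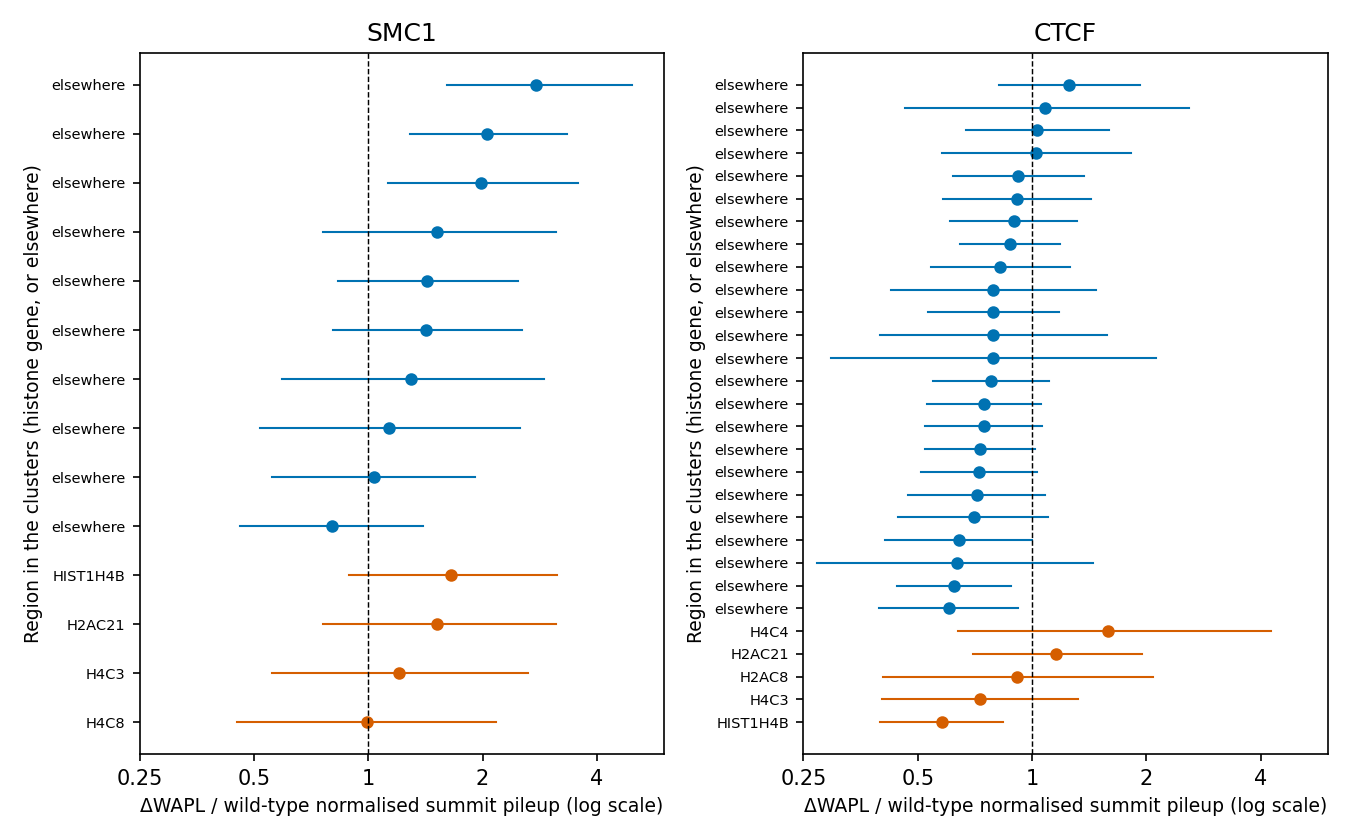
Ratio of normalised summit pileup in ΔWAPL over wild-type cells (x axis, log scale) for each region of the clusters listed in both, for SMC1 (left) and CTCF (right). Orange points are regions near a histone start, named by gene, blue points are elsewhere in the clusters, and bars are exact 95% intervals for counting error. No SMC1 interval near a histone start is clear of 1, while 3 elsewhere lie above it.

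The CTCF motif followed the constant CTCF sites. A match was found at 22 of 27 regions with CTCF in all 4 genotypes, at 3 of 8 with CTCF in 1 to 3 genotypes and at 1 of 21 without CTCF. Of the 22 matches, 13 were on the plus strand and 9 on the minus strand. Near histone starts, 3 of the 4 constant regions had a match, those of HIST1H4B, H2AC8 and H2AC21 printed above, and H4C3 had none. A match describes letters only.

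Read placement was most limited in the chromosome 1 cluster. Over 250 bp before to 500 bp after each start, 35 of the 61 histone genes held no 65-base word, the length of a read, that recurs in hg19, and in 17 some but not over 50% of the words recur, among them H2AC13 and H2AC14 (43.2% each). In H4C14, H3C14, HIST2H2AA3, H2AC19, H3C15 and H4C15, all on chromosome 1, 100% of the words recur. None of these 6 genes had an SMC1 or CTCF peak, and a lack of peaks there says nothing about binding. H4C12 was the single gene with an SMC1 peak for which more than 50% of the words recur (53.0%), and H4C11 had the same share.

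The promoter words printed above were more frequent in histone promoters than in others, and histone genes with and without SMC1 held them. Among 56 histone promoters found in RefSeq (GRCh38, 250 bases before to 50 after the start, both strands), TATAAA occurred in 67.9%, CCAAT in 83.9% and ATTTGCAT in 39.3%. Among all 15841 protein-coding promoters the shares were 9.63%, 36.4% and 1.70%. The octamer ATTTGCAT was in 10 of 14 H2A and 11 of 14 H2B promoters, 1 of 11 H3 and 0 of 11 H4 promoters. AAACACA, the H1 box, was in 6 of 6 H1 promoters and in 4.24% of all. Of 18 histone promoters whose gene had an SMC1 peak in any genotype, 14 held TATAAA, 14 CCAAT, 8 the octamer and 3 AAACACA. Of 38 without, 24, 33, 14 and 6 did in that order.

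Lists of other histone-related genes were set beside the shares of all protein-coding genes, 17.3%, 43.7%, 11.8% and 24.3% in wild-type, ΔWAPL, ΔSCC4 and double-knockout cells. With 1 start per gene those shares were 11.4%, 35.1%, 7.84% and 17.4%. Of 12 replication-independent histone genes, whose expression is mostly not limited to S phase, 2 had SMC1 near a start in the wild type, 6 in ΔWAPL, 0 in ΔSCC4 cells and 2 in the double knockout. The ΔWAPL share was 50% (95% Wilson interval 25.4 to 74.6) over every start, and 25% with 1 start per gene. The 6 were H1-10, H2AX, H2AZ2, H3-3A, H3-3B and MACROH2A2, and the same 6 had a CTCF peak in all 4 genotypes. Of 13 genes for histone transcription and mRNA processing, 3 had SMC1 in the wild type, 10 in ΔWAPL, 2 in ΔSCC4 cells and 6 in the double knockout. Their ΔWAPL share was 76.9% (49.7 to 91.8), or 69.2% with 1 start per gene. NPAT, which activates histone genes, and CSTF2 had it in ΔWAPL and double-knockout cells, and LSM11, a part of the U7 particle that processes histone mRNA, and POU2F1, which binds the octamer, in all 4. HINFP, an activator of H4 genes, and LSM10, CPSF2 and CPSF3, which act in 3′ processing, had it in ΔWAPL cells only, without CTCF. Of 8 other histone genes outside the windows, 3 had SMC1, in ΔWAPL cells only.

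For comparison with another set of genes known for high expression, SMC1 lay near 16 of 88 cytosolic ribosomal protein genes in the wild type, 52 in ΔWAPL, 8 in ΔSCC4 cells and 19 in the double knockout. In ΔWAPL cells this was 59.1% (95% Wilson interval 48.6 to 68.8), above the interval of the clustered histone genes. Against all protein-coding genes, the shares of the ribosomal protein genes in the other genotypes were 18.2% beside 17.3% in the wild type, 9.09% beside 11.8% in ΔSCC4 cells and 21.6% beside 24.3% in the double knockout. With 1 start per gene they were 17.0% beside 11.4%, 7.95% beside 7.84% and 20.5% beside 17.4% in that order. In ΔWAPL cells they were then 53.4% beside 35.1%. Of the 6 other protein-coding genes in the windows, BOLA1, POM121L2 and ZNF391 had SMC1 in all 4 genotypes. At ZNF391, a zinc-finger gene between the histone groups of the second window, SMC1 was listed without CTCF in all 4 genotypes, with fold enrichments of 5.23, 8.30, 4.10 and 7.08 in wild-type, ΔWAPL, ΔSCC4 and double-knockout cells. No histone gene had such a peak in all 4 genotypes, beside 0.456% of all protein-coding genes.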

How the data were processed

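ChIP-seq peak lists of SMC1, CTCF and IgG from 4 HAP1 genotypes were used, 1 library each. The authors mapped single-end 65-base reads to hg19 with Bowtie2 and called peaks per library, with IgG as the stated control, with MACS2 (version 2.1.1 in the submitters' processing notes). The calling threshold is not given in the sources used here. The deposited SMC1 lists differ in size from the paper's counts. That of ΔWAPL cells held 33952 peaks and that of the double knockout 26558, both fewer than the paper reports. The ΔSCC4 list held 12779 peaks, more than the paper reports, and the wild-type list 18542, close to its number. All counts and shares here rest on the deposited lists, and the reason for the difference was not tested. The deposited fold enrichment is a ratio of summit pileup to local background, each with 1 read added, and the deposited −log10 p and −log10 q values are the caller's. The other deposited columns used, interval ends and summit offset, are positions and not a score.

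Whole-number pileups were recovered from fold enrichment and −log10 p for 100% of peaks in each list (relative tolerance 0.0001), and were divided by the library average, taken as the lowest background. The recovery was tested on simulated data. Averages were 6.53 to 8.41 reads per kb in the SMC1 and CTCF libraries, and intervals (Wilson for shares, exact for counts and ratios, 95%) cover counting error only. Peaks were assigned to genes when the summit lay within 1 kb of a transcript start of GENCODE 44 mapped to GRCh37, and an SMC1 peak was at CTCF when its interval and one of the CTCF list of that genotype shared at least 1 bp. A histone gene is one whose symbol starts with HIST1, HIST2, H1-, H2AC, H2BC, H3C or H4C, and histone genes under other symbols are not members.

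Samples were grouped by title. Named were all histone genes with an SMC1 peak in wild-type, ΔSCC4 or ΔWAPL/ΔSCC4 cells, the 10 strongest SMC1 peaks near a histone start in ΔWAPL cells and the 10 strongest such CTCF peaks by −log10 q, and genes with near-identical copies. The members, lists and rules were chosen with earlier results of these data known. The CTCF motif was learned on odd-numbered chromosomes, outside the clusters, from 1000 CTCF peaks of wild-type cells and matched 80.2% of 19573 such peaks on even-numbered chromosomes, at a score that 5% of flanking windows reach. Promoter words were counted in RefSeq promoters of GRCh38. Python 3.11.15, numpy 2.4.6, pandas 2.3.3, scipy 1.17.1 and matplotlib 3.10.9 were used.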

Additional observations from a re-analysis of the deposited data

Results flagged for a closer look

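The number of histone genes with an SMC1 peak near a start differed in opposite directions between cells with and without WAPL in the 2 backgrounds. ΔWAPL minus wild-type was 9 (17 against 8), and ΔWAPL/ΔSCC4 minus ΔSCC4 was -4 (2 against 6). The number of SMC1 peaks near a histone start without CTCF moved likewise, by 9 (12 against 3) and by -3 (0 against 3). With 1 library per genotype these differences were not tested. Over all protein-coding genes, the number with an SMC1 peak was higher without WAPL in both backgrounds, with 8817 against 3491 and 4909 against 2388 genes. The ΔWAPL/ΔSCC4 SMC1 library was the shallowest of the 4, at 6.79 reads per kb beside 8.41 in ΔSCC4, and thinned to equal depth with −log10 p of at least 8 the genes numbered 5 against 1 and 2 against 3, and the peaks without CTCF 1 against 0 and 0 against 1. With −log10 q of at least 10 the genes numbered 2 against 0 and 0 against 0. Shares of all protein-coding genes were not counted under these settings.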

How the results depend on the processing

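Of 132 alternative values for 16 results under 10 alternative settings, 88 stayed within 1.5 times the main count and 44 did not. The setting that left out peaks at an IgG peak could not move any value, because no IgG peak lay in the clusters. Its values are among the 88 and say nothing about stability. The limits are 1 library per genotype, summits of 10 to 30 reads, and an unstated calling threshold. Values that moved are given in the order wild-type, ΔWAPL, ΔSCC4, ΔWAPL/ΔSCC4 where all 4 did. With −log10 q of at least 5, the histone genes with SMC1 in wild-type were 3, those with CTCF in ΔSCC4 3, and the SMC1 peaks near a histone start without CTCF 1 in wild-type and 6 in ΔWAPL. With −log10 q of at least 10, the histone genes with SMC1 were 0, 2, 0 and 0, the SMC1 peaks in the clusters 6, 13, 2 and 7, the peaks without CTCF 0, 1 and 0 in the first 3, and the genes with CTCF 3, 2 and 3 in wild-type, ΔSCC4 and ΔWAPL/ΔSCC4. With fold enrichment of at least 5, genes with SMC1 were 2, 3, 3 and 1, peaks without CTCF 1, 0 and 1 in the first 3, genes with CTCF 3 in ΔSCC4, and SMC1 peaks in the clusters 19 in ΔWAPL and 9 in ΔSCC4. So at that setting ΔWAPL had no more such genes than ΔSCC4. Within 500 bp of a start, genes with SMC1 were 5 in wild-type and 0 in ΔWAPL/ΔSCC4, and genes with CTCF 3 in ΔWAPL, ΔSCC4 and ΔWAPL/ΔSCC4, while within 2000 bp genes with SMC1 were 4 in ΔWAPL/ΔSCC4. Thinned to equal depth with −log10 p of at least 8, genes with SMC1 were 1, 5, 3 and 2, so that the double knockout was above the wild type, peaks without CTCF were 0, 1 and 1 and SMC1 peaks in the clusters 9, 21 and 7 in the first 3, and genes with CTCF 2 in ΔSCC4. Thresholds and thinning were applied to the SMC1 and CTCF lists alike, so a peak could lose its CTCF partner, as the ΔWAPL peak of H2AC8 did at −log10 q of at least 10. The cause of these moves was not tested beyond the fewer peaks that each stricter setting keeps. Shares of all protein-coding genes were not counted under these thresholds or the thinning, so the counts have no share beside them. No paired analysis was possible because each group held 1 library and no result came from a test.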
